A study of Sus scrofa with 36 samples.

Results

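Solute carrier (SLC) genes encode membrane transporters that move sugars, amino acids, fatty acids, metals, nucleotides and ions across the plasma membrane and the membranes of organelles, and they are numbered by family. In adipose tissue they are known for glucose uptake, for fatty acid uptake by adipocytes, for the glutamine and branched-chain amino acid supply of fat cells and for the exchange of metabolites between mitochondria and cytosol. Here they were described in RNA-Seq data of subcutaneous adipose tissue from 36 pigs. A gene was taken as a member when the symbol belonging to its pig Ensembl ID began with SLC and a number. This gave 160 of the 12253 genes in the table, from 41 SLC families. As 3933 of the gene IDs had no symbol, transporters among those rows could not be recognised, and SLC2A4 and SLC2A1, the best known glucose transporters of fat, are not analysed here.

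The pigs came from an F2 intercross of Duroc and Göttingen minipigs, and neither the labels nor the methods name a treatment. They were ranked by the Obesity Index, an aggregate predicted genetic value for obesity, and 12 pigs each were taken as lean (labelled Low), intermediate (Mean) and obese (High). The lean group held 7 males and 5 females, and each of the other groups 6 and 6. As the study describes, the pigs were killed at about the same body weight, the lean ones at the oldest and the obese ones at the youngest age, so the group and the age at slaughter cannot be told apart. The methods also allowed full sibs within a group. As a group is defined by predicted genetic value, it limits the comparison to pigs of this cross, and each pig is a biological replicate.

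By class the members were 12 glucose and sugar carriers, 23 amino acid carriers, 28 mitochondrial carriers of the SLC25 family, 13 zinc carriers, 8 monocarboxylate carriers, 4 fatty acid carriers and 4 carriers of copper and other metals. A further 16 belonged to the nucleotide sugar carrier family, 22 to ion and acid-base families and 30 to the remaining families. The classes follow the SLC number only. SLC5A6, a vitamin transporter, thus counts as a sugar carrier, and SLC4A1AP, an adaptor protein and not a carrier, counts among the ion carriers. Between 8735839 and 11755925 reads per pig were recovered from the deposited log2 values, and normalized counts below are these reads divided by the size factor of the pig. Of the adipocyte markers in the table, PLIN1, CIDEC, PPARG, LIPE and PNPLA2, the summed normalized count was 27887 to 84349 per pig. None of the 8 skeletal muscle markers was among the named rows.

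Single pigs stood apart from all others in some transporters, several of them best known from other organs. The normalized counts of 14 members (8.75%) exceeded 5 times their median over the 36 pigs in at least 1 pig, against 3.96% of all genes. These members and pigs were picked for their values, so they are a description without a test. Genes other than members given beside them below were also chosen, and only part of those looked at are printed. They are no test of a tissue source. Intermediate pig 10 had 6 such members, obese pig 2 had 5, and lean pig 7 and intermediate pig 6 had 4 each. These were 3.75%, 3.12%, 2.5% and 2.5% of the members, where 0.384%, 0.343%, 0.71% and 1.31% of all genes were over that limit in the same pigs. Intermediate pig 8 and obese pigs 1 and 3 had 48 to 67 such genes, more than the 47 and 42 of intermediate pig 10 and obese pig 2, but none was a member. A further 4 pigs had 1 or 2, and 28 pigs had none.

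Intermediate pig 10 held the highest value of SLC5A1, SLC39A4, SLC27A4 and SLC5A4. SLC5A1, the sodium-glucose cotransporter of the small intestine, had a normalized count of 7878 in this pig, 263 times the median of 30.0 over the pigs. The next values of SLC5A1 were 890 in lean pig 3 and 387 in intermediate pig 12, and the lowest was 13.7. SLC39A4, the zinc importer of the intestine, reached 847 in intermediate pig 10 against a median of 27.8. SLC27A4, a fatty acid carrier of the intestine, reached 1194 against 219. SLC5A4, a relative of SLC5A1, reached 342 against 51.9. In the same pig APOA1, an apolipoprotein made by intestine and liver, was at 19040 against a median of 758, DPP4, a brush border peptidase, at 1438 against 63.7 and CLDN4, a tight junction protein of epithelia, at 698 against 32.2. For SLC5A1, SLC39A4, SLC27A4 and APOA1 the second highest pig was always lean pig 3. For CLDN4 the second highest was lean pig 7, at 497.

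Obese pig 2 held the highest value of SLC5A2, SLC12A1 and SLC16A12, the former 2 known from the kidney tubule. SLC5A2, the sodium-glucose cotransporter that takes glucose back from the filtrate, had a normalized count of 546 in this pig against a median of 14.2. SLC12A1, the target of loop diuretics, reached 348 in obese pig 2 and 282 in lean pig 8, with a median of 24.7 and no other pig above 48.8. SLC16A12, a monocarboxylate family carrier, reached 384 in obese pig 2 against a median of 73.6. HAO2, a hydroxyacid oxidase, was at 674 in obese pig 2 and 424 in lean pig 8 against a median of 29.0, and XPNPEP2, a membrane peptidase, at 533 in obese pig 2, 328 in intermediate pig 10 and 132 in lean pig 8 against 19.3. Lean pig 8 was also second for SLC5A2, at 87.6.

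Intermediate pig 6 held the highest value of SLC12A5, SLC6A17 and SLC1A3, all known from nerve tissue. SLC12A5, the potassium-chloride cotransporter of neurons, had a normalized count of 822 in this pig against a median of 30.4 and a next highest value of 104. SLC6A17, a carrier of synaptic vesicles, reached 405 against 30.6. SLC1A3, the glutamate transporter of astrocytes, reached 4289 against 663. The neuronal genes SYP and MAP2 were at 2705 and 3871 in this pig against medians of 21.5 and 75.8, and GFAP, the astrocyte filament protein, at 5389 against 40.7. GFAP was also at 1318 in intermediate pig 4 and 667 in lean pig 12.

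Lean pig 7 held the highest value of SLC7A8, a neutral amino acid exchanger of epithelia, at 494 against a median of 38. SLC23A1, an epithelial vitamin C transporter, reached 362 against 33.8, SLC7A1, an arginine transporter, 453 against 88.6, and SLC20A2, a phosphate transporter, 269 against 44.7. DSP, a desmosome protein of epithelia, was at 14094 in this pig against a median of 33.2, and at 933 in intermediate pig 10. SLC7A8 and SLC23A1 were also high in intermediate pig 10, at 485 and 211, and in obese pig 2, at 291 and 261, and SLC7A8 also in intermediate pig 6, at 256. The part that tissue other than fat played in these values was not tested. The 4 pigs belong to all 3 groups, and the count of members at an unadjusted p under 0.05 is given with and without them for each comparison below.

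**Figure D1:**
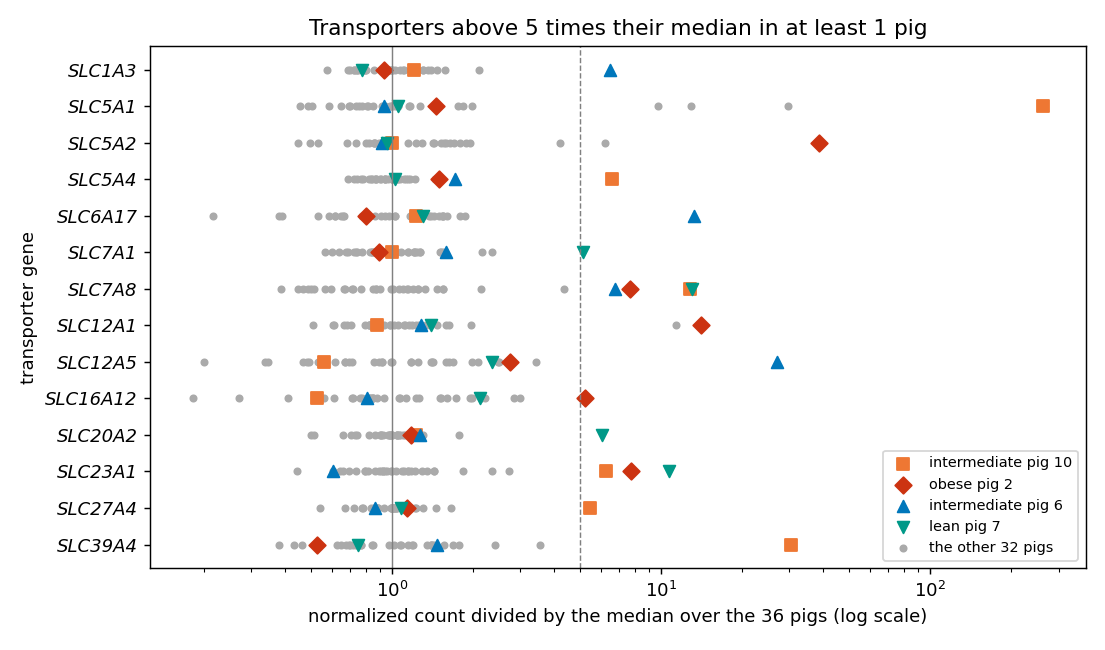
Normalized counts of the 14 members that exceeded 5 times their median in at least 1 pig, each divided by the median over the 36 pigs, on a log axis; the dashed line marks 5 times the median. Intermediate pig 10 stands at 263 for SLC5A1 and 30.5 for SLC39A4, obese pig 2 at 38.5 for SLC5A2, intermediate pig 6 at 27.0 for SLC12A5 and lean pig 7 at 13.0 for SLC7A8, while most grey points lie near 1.

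The first comparison asked which transporters differed between obese and lean pigs. With limma and Benjamini-Hochberg (BH) adjustment over all genes, 0 of the 160 members passed 0.05, where 0.0408% of all genes passed. At an unadjusted p under 0.05 there were 30 members (18.8%), against 14.7% of all genes. Of these, 19 members (11.9%) were higher in obese pigs, where 6.81% of all genes were, and 11 (6.88%) were lower, where 7.88% were. Without the 4 pigs that stood apart, 0 members passed the adjusted threshold and 23 (14.4%) the unadjusted one, against 12.7% of all genes. Of these 12 (7.5%) were higher, against 5.66% of all genes, and 11 (6.88%) lower, against 7.05%. Of the 30 members, 21 kept an unadjusted p under 0.05 and 9 lost it, among them SLC6A4, SLC36A2, SLC25A38, SLC25A46, SLC27A1, SLC30A2, SLC35F6 and SLC35B3. Some of these differences stayed about as large, such as SLC30A2 with 0.91 and 0.89 and SLC35F6 with 0.23 and 0.20. The 2 members that had such a p only without the 4 pigs were SLC7A8 and SLC23A1, both lower in obese pigs and both among the genes whose values set these pigs apart, so these p values are no independent test. With voom weights on the recovered reads the numbers were 0 and 29 (18.1%), against 16.0% of all genes. The median log2 difference of the members was 0.01 and that of all genes -0.01. Of the members, 89 (55.6%) differed by less than 1 standard error (SE), where 53.0% of all genes did. In this bulk tissue, fewer cells of a type and less RNA per cell cannot be told apart.

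**Figure D2:**
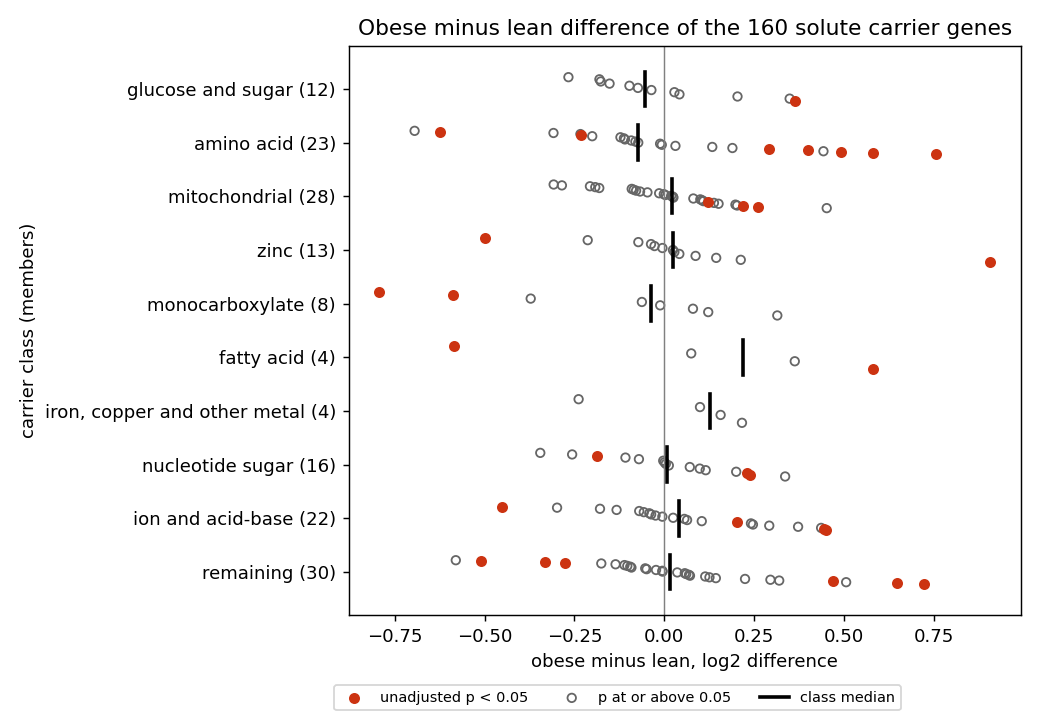
Obese minus lean log2 difference of each of the 160 members by carrier class, with 1 point per gene; filled points have an unadjusted p under 0.05 and the black bars are class medians. Both signs occur in nearly every class, and the class medians lie between -0.07 for the amino acid and 0.22 for the fatty acid carriers.

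Among the glucose and sugar carriers the median of the obese minus lean log2 differences was -0.05. Of these 12, 1 had an unadjusted p under 0.05, where 14.7% of all genes did. It was SLC45A4, a proton-coupled sugar carrier relative named after its values were seen, with a log2 difference of 0.36 ± 0.14 (SE). Its normalized count was 64.4 to 165 with a median of 96.5 in lean, 65.2 to 181 with a median of 134 in intermediate and 94.5 to 185 with a median of 119 in obese pigs. The groups overlapped over most of their range, and its BH-adjusted p in limma was 0.21. The glucose transporters SLC2A8, SLC2A10 and SLC2A12, which take up hexoses by facilitated diffusion, differed by less than 1 SE between obese and lean pigs, as did SLC5A1. Intermediate minus lean, SLC2A10 differed by -0.35 ± 0.13 (SE), with a BH-adjusted p of 0.285 in limma. SLC5A6, which had the most reads of the class, ran from 1210 to 3326 in lean and from 1357 to 5984 in obese pigs, and its log2 difference was 0.35 ± 0.22 (SE).

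With all pigs the amino acid carriers held the most members at an unadjusted p under 0.05. Of the 23, 5 were higher and 2 lower in obese pigs, where 14.7% of all genes had such a p. When the 4 pigs were left out, SLC6A4 and SLC36A2 lost it and SLC7A8 gained it. That left 4 higher and 2 lower, beside 3 higher and 4 lower among the 30 of the remaining families, so the ranking did not hold. The class median of the obese minus lean log2 differences was -0.07, and 9 of the 23 were above 0. SLC38A1, a sodium-coupled importer of glutamine and other small neutral amino acids, had a normalized count of 12.2 to 31.7 with a median of 23.1 in lean pigs. It was 16.3 to 60.8 with a median of 37.8 in intermediate and 19.1 to 44.3 with a median of 33.1 in obese pigs. Of the obese pigs, 11 of 12 lay above the lean median and 7 above the highest lean pig. The log2 difference was 0.58 ± 0.18 (SE) for obese against lean pigs, with a BH-adjusted p of 0.113 in limma.

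SLC1A5, the exchanger that also brings glutamine into cells, ran from 2024 to 4194 with a median of 2988 in lean pigs, from 1991 to 5282 with a median of 3090 in intermediate pigs and from 2926 to 4753 with a median of 3754 in obese pigs. Here 11 of 12 obese pigs were above the lean median, though only 3 were above the highest lean pig. Obese minus lean, its log2 difference was 0.40 ± 0.13 (SE), and its BH-adjusted p in limma was 0.123. SLC38A9, the lysosomal arginine sensor, ran from 186 to 272 with a median of 237 in obese pigs and from 234 to 338 with a median of 261 in lean pigs. Its log2 difference was -0.23 ± 0.08 (SE), with 5 obese pigs below the lowest lean pig and a BH-adjusted p of 0.169 in limma.

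SLC7A10, a small neutral amino acid transporter used as a surface marker of white adipocytes, had medians of 128, 200 and 214 in lean, intermediate and obese pigs. Lean pigs ran from 36.5 to 217 and obese pigs from 77.5 to 339, so the groups overlapped, and the log2 difference was 0.76 ± 0.36 (SE). The other members of this class at an unadjusted p under 0.05, SLC6A4, SLC36A2 and SLC38A6, lie outside the rule for named genes and are given because their values were seen. SLC6A4, the serotonin transporter, differed by -0.63 ± 0.23 (SE) between obese and lean pigs, SLC36A2, a proton-coupled amino acid transporter, by 0.49 ± 0.22 (SE) and SLC38A6 by 0.29 ± 0.11 (SE). When the 4 pigs were left out, SLC6A4 differed by -0.47 and SLC36A2 by 0.41. The lean median of SLC38A6 was exceeded by all 12 obese pigs, and the highest lean pig by none of them.

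SLC7A8 was among the genes whose values set the 4 pigs apart, so its value without them is a description. Obese minus lean, its log2 difference was -0.69 ± 0.52 (SE) in all pigs and -0.67 ± 0.29 (SE) without the 4 pigs. It was -0.97 without obese pig 2 and -0.40 without lean pig 7. SLC3A2, the heavy chain that several amino acid exchangers need at the cell surface, and its light chain SLC7A7 differed by less than 1 SE. So did SLC1A3, SLC7A1, SLC7A2 and SLC38A2.

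**Figure D3:**
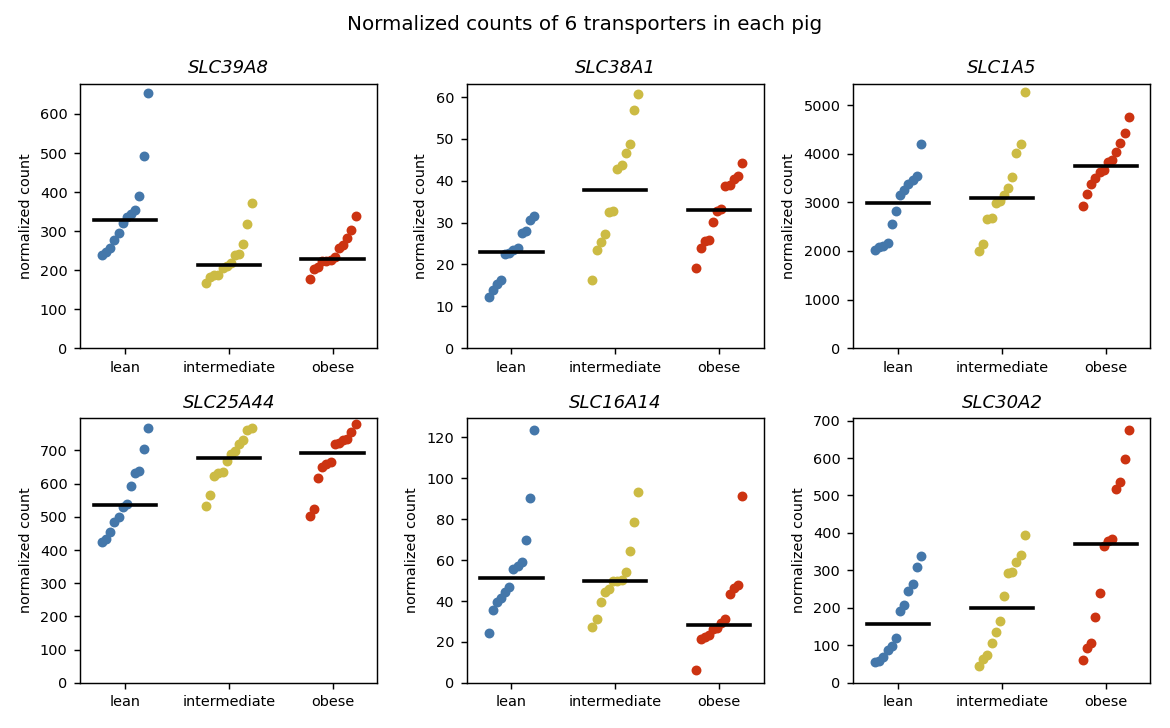
Normalized counts of 6 members in 36 pigs by group, 12 a group, with 1 point per pig and the group median as a black bar. SLC39A8 and SLC16A14 lie lower in most obese pigs and SLC38A1, SLC1A5 and SLC25A44 higher, with overlap in each, and SLC30A2 spreads from 62.1 to 674 among the obese pigs.

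The mitochondrial SLC25 carriers had a median obese minus lean log2 difference of 0.02. Of the 28, 3 had an unadjusted p under 0.05, all higher in obese pigs, where 6.81% of all genes were, and 1, SLC25A44, had it without the 4 pigs that stood apart. SLC25A44, the carrier that brings branched-chain amino acids into mitochondria and is known from brown fat, had the smallest p of the class. Its normalized count was 425 to 768 with a median of 535 in lean, 533 to 767 with a median of 678 in intermediate and 504 to 779 with a median of 692 in obese pigs. Of the obese pigs 10 and of the intermediate pigs 11 of 12 were above the lean median, though 1 obese pig exceeded the highest lean pig. Obese minus lean, the log2 difference was 0.26 ± 0.09 (SE), with a BH-adjusted p of 0.129 in limma, and it was 0.43 in females and 0.12 in males. SLC25A38, a glycine carrier, and SLC25A46, a member of the outer membrane, were the other 2, at 0.22 ± 0.09 (SE) and 0.12 ± 0.06 (SE), and were named after their values were seen.

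SLC25A1, the citrate carrier that feeds fatty acid synthesis, had the widest spread of the class. It ran from 297 to 5592 with a median of 1571 in lean pigs, from 1102 to 3330 with a median of 2146 in intermediate pigs and from 1380 to 4868 with a median of 1952 in obese pigs. Obese minus lean, its log2 difference was 0.45 ± 0.32 (SE), with 0.91 in females and 0.07 in males. Without lean pig 2 it was 0.22. SLC25A20, the carnitine carrier of fatty acid oxidation, differed by -0.18 ± 0.13 (SE), with -0.05 in females and -0.31 in males, and by -0.11 without obese pig 4. The aspartate-glutamate carriers SLC25A12 and SLC25A13 differed by -0.21 ± 0.13 (SE) and -0.31 ± 0.20 (SE). SLC25A13 had 0.05 in females and -0.59 in males. The phosphate carrier SLC25A3, which had the most reads of all members at a normalized count of 3575 to 7105 over the pigs, and the ADP/ATP carriers SLC25A4 and SLC25A5 differed by less than 1 SE.

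The zinc carriers are of 2 families that move zinc in opposite directions, with SLC30 members lowering and SLC39 members raising zinc in the cytosol. Of the 13, 1 member was higher and 1 lower in obese pigs at an unadjusted p under 0.05, where 6.81% and 7.88% of all genes were, and 9 differed by less than 1 SE. SLC39A8, an importer of zinc and manganese, had the smallest p of all members. Its normalized count was 240 to 653 with a median of 328 in lean pigs, 167 to 373 with a median of 214 in intermediate pigs and 178 to 338 with a median of 229 in obese pigs. Of the obese pigs, 11 of 12 were below the lean median and 7 below the lowest lean pig. Obese minus lean, the log2 difference was -0.50 ± 0.14 (SE), with a BH-adjusted p of 0.0966 in limma. Without the 4 pigs that stood apart it was -0.43, with a BH-adjusted p of 0.168.

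SLC30A2, which loads zinc into vesicles, had the largest log2 difference of all members between obese and lean pigs, 0.91 ± 0.42 (SE). It ran from 54.4 to 339 with a median of 156 in lean pigs and from 62.1 to 674 with a median of 372 in obese pigs. While 7 obese pigs lay above the highest lean pig, 3 lay below the lean median. The difference was 1.34 in males and 0.39 in females, and its BH-adjusted p in limma was 0.307. Leaving out the 4 pigs gave 0.89 ± 0.45 (SE), with an unadjusted p of 0.0565 in limma. SLC30A7 and SLC39A13 differed by 0.21 ± 0.13 (SE) and 0.09 ± 0.07 (SE). In females these were 0.05 and 0.14, and in males 0.38 and 0.04.

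Monocarboxylate carriers of the SLC16 family move lactate, ketone bodies, thyroid hormone, carnitine and other small molecules. Of the 8, 2 were lower and 0 higher in obese pigs at an unadjusted p under 0.05, where 7.88% and 6.81% of all genes were, and the counts were also 2 and 0 without the 4 pigs. SLC16A14, a family member of little known substrate, had a normalized count of 24.4 to 123 with a median of 51.2 in lean pigs, 27.3 to 93.5 with a median of 49.8 in intermediate pigs and 6.37 to 91.1 with a median of 28.0 in obese pigs. Of the obese pigs, 11 of 12 were below the lean median and 4 below the lowest lean pig. Obese minus lean, the log2 difference was -0.79 ± 0.25 (SE), with a BH-adjusted p of 0.121 in limma. It was -1.09 in females and -0.51 in males. SLC16A9, a carnitine transporter, differed by -0.59 ± 0.26 (SE) between obese and lean pigs.

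SLC16A12 ran from 52.5 to 220 with a median of 136 in lean pigs, from 30.1 to 78.5 with a median of 60.9 in intermediate pigs and from 13.4 to 384 with a median of 101 in obese pigs, the highest of which was obese pig 2. The log2 difference was -0.90 ± 0.35 (SE) for intermediate against lean pigs, with a BH-adjusted p of 0.296 in limma, and -0.37 ± 0.35 (SE) for obese against lean pigs. The latter was -0.59 without obese pig 2, -0.17 without obese pig 3 and -0.56 without the 4 pigs that stood apart. The lactate and pyruvate transporters SLC16A3 and SLC16A7 differed by less than 1 SE between obese and lean pigs.

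The 4 fatty acid carriers, which couple uptake to activation of the fatty acid, had values on both sides of 0. SLC27A1, the fatty acid transporter of adipocytes and muscle, ran from 39.9 to 191 with a median of 90.3 in lean pigs and from 57.2 to 195 with a median of 146 in obese pigs. Its log2 difference was 0.58 ± 0.27 (SE), with 0.91 in males and 0.18 in females, and its BH-adjusted p in limma was 0.3. It was 0.42 without the 4 pigs. SLC27A3 ran from 167 to 720 with a median of 321 in lean pigs and from 97.7 to 676 with a median of 230 in obese pigs. Its log2 difference was -0.58 ± 0.23 (SE), with -0.93 in males and -0.16 in females. SLC27A6 differed by 0.36 ± 0.20 (SE), with 0.57 in males and 0.14 in females, and by 0.23 without obese pig 12. SLC27A4 differed by less than 1 SE.

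In the remaining classes, 3 further members were among the 10 with the smallest p for obese against lean pigs, beside SLC37A2. SLC44A2, a choline transporter-like protein, had a normalized count of 1471 to 3126 with a median of 2418 in lean pigs, 1723 to 2971 with a median of 2117 in intermediate pigs and 1393 to 2564 with a median of 1954 in obese pigs. Of the obese pigs 11 of 12 were below the lean median. The log2 difference was -0.33 ± 0.10 (SE), with a BH-adjusted p of 0.113 in limma. When lean pig 8 was left out it was -0.40 ± 0.09 (SE), with a BH-adjusted p of 0.033, and this was the only member that leaving out any single pig brought past the threshold for obese against lean pigs. Over the alternatives its adjusted p ranged from 0.033 to 0.36.

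SLC22A3, the organic cation transporter that takes up noradrenaline and other monoamines, ran from 146 to 404 with a median of 337 in lean, from 124 to 333 with a median of 197 in intermediate and from 124 to 336 with a median of 207 in obese pigs. All 12 obese and all 12 intermediate pigs lay below the lean median. Obese minus lean, its log2 difference was -0.51 ± 0.17 (SE), with a BH-adjusted p of 0.143 in limma. SLC9A8, a sodium-proton exchanger of the Golgi, had medians of 31.8, 32.7 and 40.3 in lean, intermediate and obese pigs, and 6 of 12 obese pigs exceeded the highest lean value of 40.4. Obese minus lean, the log2 difference was 0.45 ± 0.14 (SE), with a BH-adjusted p of 0.114 in limma.

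SLC15A3, a lysosomal carrier of peptides and histidine, had a normalized count of 152 to 759 with a median of 278 in lean pigs, 174 to 746 with a median of 395 in intermediate pigs and 275 to 993 with a median of 559 in obese pigs. SLC37A2, a sugar phosphate exchanger of the endoplasmic reticulum, had medians of 319, 432 and 485. For both genes 11 of 12 obese pigs were above the lean median. Obese minus lean, the log2 difference was 0.65 ± 0.27 (SE) for SLC15A3 and 0.47 ± 0.17 (SE) for SLC37A2, with BH-adjusted p values of 0.236 and 0.175 in limma. SLC46A2, first described in thymic stroma, differed by 0.72 ± 0.28 (SE), with a BH-adjusted p of 0.204.

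Of the macrophage markers 7 of 11 were in the table, CD68, CSF1R, MSR1, FCER1G, SPI1, C1QA and CD14. All 7 had an unadjusted p under 0.05 for obese above lean, where 6.81% of all genes did. Their median log2 difference was 0.82, and 0 passed after adjustment. The study itself reported CD68, CSF1R and SPI1 as up-regulated in these obese pigs, so the count is no independent result. The summed normalized count of the 7 was 1758 to 8869 with a median of 2666 in lean and 3866 to 11149 with a median of 6746 in obese pigs. Over the 36 pigs, after a linear sex term, SLC15A3 followed the macrophage score, the mean of these 7 scaled genes, with Pearson's r = 0.845 and Spearman's rho = 0.799. For SLC37A2 r was 0.850 and rho 0.843. Both permutation p values were 1e-05 for each of the 2 genes, the smallest that 100000 resamples can give, and the BH-adjusted value over 8 relations was 4e-05. Without the 2 pigs farthest from the median of the transporter, r was 0.825 and 0.822. Within males r was 0.845 and 0.877, and within females 0.866 and 0.796. After a group term r was 0.837 and 0.809. The part of the macrophage markers in the differences of both transporters between groups was not tested.

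**Figure D4:**
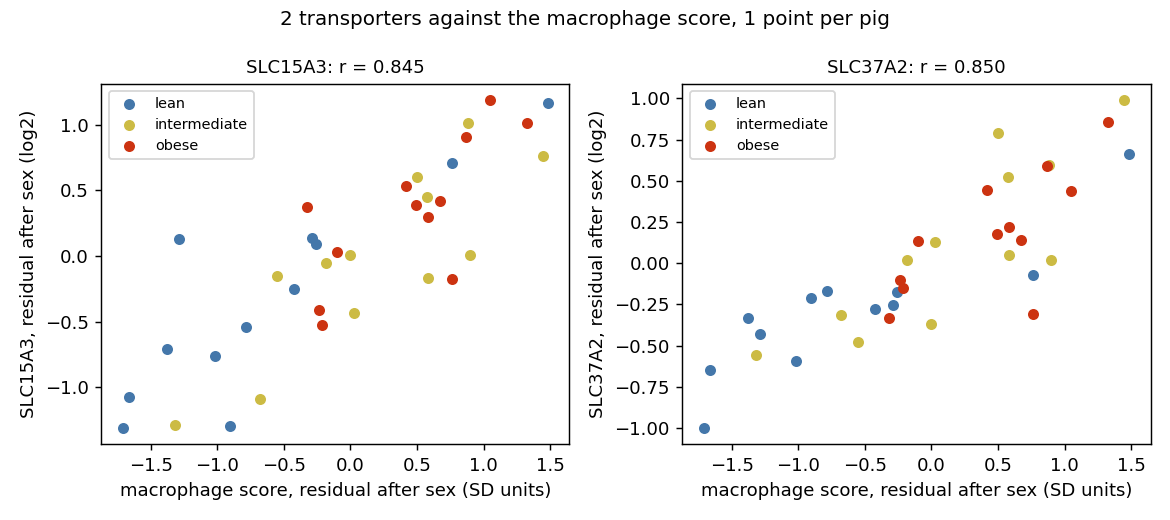
SLC15A3 and SLC37A2, as residuals of the log2 value after a sex term, against the macrophage score treated the same way, with 1 point for each of the 36 pigs, coloured by group. Pearson's r is 0.845 and 0.850, and the highest macrophage score belongs to a lean pig, with intermediate and obese pigs next.

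The other 6 relations did not pass. SLC7A7, an amino acid exchanger of macrophages and epithelia, had r = 0.202 and rho = 0.289 with the macrophage score, with permutation p values of 0.241 and 0.0886. SLC3A2 had r = 0.310 with SLC7A7 and r = -0.253 with SLC1A5, with rho of 0.295 and -0.265. SLC25A1 had r = -0.212 with SLC25A20 and r = 0.133 with the adipocyte score, and SLC27A1 r = 0.226 with that score. BH-adjusted permutation p values of r for these 6 were 0.174 to 0.436.

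Intermediate pigs were compared with the same lean pigs, so the 2 comparisons share their controls and their values are given side by side. With limma 0 members passed after BH adjustment for intermediate against lean pigs, and 0.0% of all genes did. At an unadjusted p under 0.05 there were 19 members (11.9%), against 12.5% of all genes, and voom weights gave 0 and 24 (15.0%), against 13.5%. Without the 4 pigs that stood apart the numbers were 0 and 23 (14.4%), against 11.7% of all genes. SLC38A1 and SLC39A8 had the smallest p. Their log2 differences were 0.74 ± 0.18 (SE) and -0.59 ± 0.14 (SE) for intermediate against lean pigs, both with a BH-adjusted p of 0.172 in limma, beside 0.58 and -0.50 for obese against lean pigs. SLC25A44 had 0.26 in both comparisons, and SLC22A3 had -0.47 and -0.51. SLC1A5 had 0.14 and 0.40, and SLC16A14 -0.05 and -0.79.

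For obese against intermediate pigs 0 members and 0.0% of all genes passed in limma after BH adjustment. At an unadjusted p under 0.05 there were 7 members (4.38%), against 4.28% of all genes, voom weights gave 0 and 5, against 5.17%, and leaving out the 4 pigs gave 0 and 7, against 3.22% of all genes. For a linear step from lean over intermediate to obese 0 members passed, against 0.0245% of all genes. The smallest BH-adjusted p, 0.11, was shared by SLC44A2 and SLC9A8, with steps of -0.17 ± 0.05 (SE) and 0.23 ± 0.07 (SE) in log2 per group. At an unadjusted p under 0.05 the step had 30 members (18.8%), against 14.5% of all genes, and 29 members with voom weights, against 15.9%. It had 24 (15.0%) without the 4 pigs, against 12.6% of all genes. Group means rose from lean over intermediate to obese for 39 members (24.4%), against 19.5% of all genes, and fell for 26 (16.2%), against 21.2%.

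The next comparison was between males and females. In limma, 1 member (0.625%) passed after BH adjustment, against 2.19% of all genes. SLC25A45, a mitochondrial carrier, was lower in males. Its normalized count was 14.0 to 83.8 with a median of 28.0 in the 19 males and 24.5 to 116 with a median of 48.4 in the 17 females, and 16 males lay below the female median. The log2 difference between males and females was -0.79 ± 0.21 (SE), with a BH-adjusted p of 0.0423. The call was lost when any of 19 single pigs was left out and held for the other 17, and it was lost without the 4 pigs that stood apart, at -0.77 with a BH-adjusted p of 0.0888. Over all alternatives the adjusted p ranged from 0.0144 to 0.0888, so the call depends on the pigs included.

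The next members by p did not pass with all pigs. SLC2A10, a glucose transporter of intracellular membranes, had medians of 78.3 in males and 57.7 in females, with a log2 difference of 0.37 ± 0.11 (SE) and a BH-adjusted p of 0.0563 in limma. Its means in males and females were 88.7 and 54.8 in lean, 66.9 and 48.7 in intermediate and 71.2 and 67.7 in obese pigs. SLC44A1, the choline transporter, had medians of 1090 and 831, with 0.45 ± 0.13 (SE) and a BH-adjusted p of 0.0565. With each pig's median subtracted, the whole size factor and voom weights its adjusted p in limma was 0.0404, 0.0408 and 0.0421. SLC16A5 and SLC31A2, a copper transporter, were lower in males by values, at medians of 229 against 292 and 161 against 218, with log2 differences of -0.37 ± 0.11 (SE) and -0.35 ± 0.11 (SE). SLC16A5 passed with voom weights, at a BH-adjusted p of 0.0453. Leaving out a single pig brought SLC2A10 past the threshold for 8 pigs, SLC44A1 for 6, SLC16A5 for 5 and SLC31A2 for 2 of the 36. At an unadjusted p under 0.05 there were 36 members (22.5%), against 18.3% of all genes, and without the 4 pigs 28 (17.5%), against 15.7%.

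**Figure D5:**
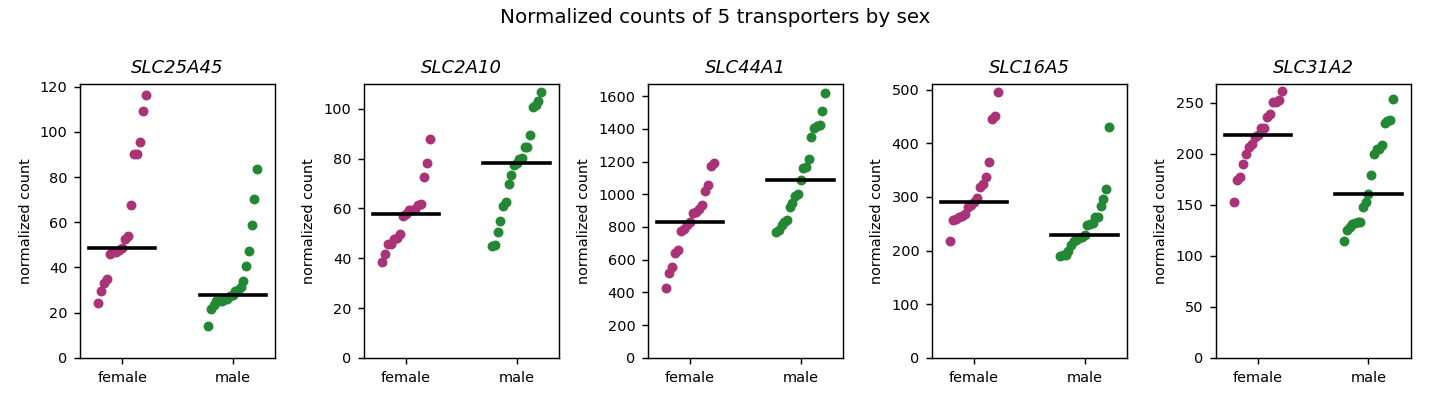
Normalized counts of the 5 members with the smallest p for males against females, with 1 point per pig for 17 females and 19 males and the median as a black bar. SLC25A45, SLC16A5 and SLC31A2 have lower medians in males and SLC2A10 and SLC44A1 higher ones, and the sexes overlap in all 5.

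Whether the difference between obese and lean pigs differed between the sexes was tested by an interaction term in limma. After BH adjustment 0 members passed, against 0.00816% of all genes. At an unadjusted p under 0.05 there were 17 members (10.6%), against 12.9% of all genes, and voom weights gave 0 and 20 (12.5%), against 11.9%. Leaving out the 4 pigs gave 0 and 15 (9.38%), against 11.9% of all genes. The sex-specific values given above are therefore not shown to differ between males and females.

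The members varied more between pigs than genes in general. Their median SD over the 36 pigs was 0.42 on the log2 scale, against 0.34 for all genes, and 60 members (37.5%) had an SD above 0.5, against 24.4% of all genes. Without the 4 pigs that stood apart the medians were 0.39 and 0.33, and 35% of the members and 22.5% of all genes had an SD above 0.5. The median normalized count was 198 for the members and 242 for all genes, and the part of counting error in the spread was not tested. By class the median SD was lowest for the nucleotide sugar carriers, at 0.27, and highest for the monocarboxylate carriers, at 0.71. SLC33A1, SLC39A9 and SLC25A46, named after their values were seen, were among the steadiest, with SDs of 0.16, 0.15 and 0.15.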

How the data were processed

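RNA-Seq was made from subcutaneous fat of 36 pigs, 12 lean, 12 intermediate and 12 obese, out of a tissue bank collected at slaughter. The labels assign neither sequencing lanes nor sibs to pigs. According to the methods, paired poly-A reads passed FastQC filters, STAR aligned them on Sscrofa10.2 and HTSeq gave the count per gene, all run by the authors. Tool versions are not given in the sources used here. The deposited log2 values were made by the authors with voom of limma, with the DESeq size factor given as library size, after genes at low levels were removed. They scale only in part with the size factor, and the gender correction described in the methods is not in them, so sex was a term of the fit.

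Low values lie on steps of whole reads plus a pseudocount of 0.5. Reads were recovered from them (at the median pig 99.9% of values were whole within 0.1 reads) and divided by the size factor, 0.796 to 1.18, to give normalized counts. The recovered totals of 8735839 to 11755925 reads per pig cover the genes in the table only, and the lowest recovered value was 6 or 7 reads. As no transcript lengths were used, statements of most reads, highest mean level or median count compare reads between genes and not transcript levels.

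Symbols came from pig Ensembl IDs, of which 8320 of 12253 matched. The deposited log2 values of all 12253 genes were fitted with limma 3.58.1 in R 4.3.3 (lmFit, contrasts.fit and eBayes with trend, two-sided) with group and sex over all 36 pigs, and adjusted by Benjamini-Hochberg (BH) at 0.05. Correlations were tested by 100000 permutations after a linear sex term, and 8 of 17 chosen relations could be computed. Python 3.11.15, numpy 2.4.6, pandas 2.3.3 and scipy 1.17.1 were used. On simulated data for obese against lean pigs, 172 of 200 genes given a log2 change of 1 were recovered, with 6 false calls among 12253 genes. The log2 differences of the members between obese and lean pigs ran from -0.79 to 0.91. Recovery of differences below 1 was not tested.

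Named were members past the threshold, the 10 with the smallest p for obese against lean and the 5 for the linear step and for sex, the member with the highest mean level and the one with the largest SD of each class, and 95 listed transporters, of which 57 were in the table. This named 73 members. The members, classes, markers and lists were chosen with earlier results of these data known.

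Alternatives were no sex term, lean and obese pigs alone, no intensity trend, the 25% of genes at the lowest mean level removed, each pig's median subtracted, voom weights on the recovered reads, division by the whole size factor, each sex alone, leaving out the 2 pigs least like the others, and leaving out each pig. Leaving out SLC4A1AP, and leaving out the 4 pigs that stood apart, were chosen after seeing the data. The values of 1 member are not reported here, and it is included in the counts.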

Additional observations from a re-analysis of the deposited data

How the results depend on the processing

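No paired analysis was possible because the pigs carry running titles and no replicate number shared between groups. For obese against lean pigs and for the linear step, leaving out single pigs gave 0 to 1 members past the threshold, the 1 being SLC44A2 without lean pig 8. No other alternative gave a member in either comparison. For males against females the 1 call became 0 with the 25% of genes at the lowest level removed, where SLC25A45 itself was among those removed, 2 with each pig's median subtracted, 2 with the whole size factor, 3 with voom weights, 0 without the 4 pigs that stood apart and 0 to 6 when single pigs were left out. The 3 with voom weights were 1.88% of the members, where 2.82% of all genes passed, and without the 4 pigs 1.14% of all genes passed. The obese minus lean median became 0.13 for the amino acid carriers in males alone, 0.16 for the glucose and sugar carriers with those genes removed, and, in females alone, -0.10 for the ion and acid-base and -0.11 for the copper and other metal carriers. In females alone the sign turned for SLC25A13 (0.0535), SLC35E4 (-0.13), SLC35G1 (-0.0265) and SLC41A2 (-0.26). The correlation of SLC25A1 with SLC25A20 was 0.0516 in males and -0.523 in females, that of SLC25A1 with the adipocyte score 0.439 and -0.152, and that of SLC27A1 with this score 0.0203 without the 4 pigs. The cause of these shifts was not tested, beyond the smaller number of pigs or genes. The median over all genes moved to between -0.07 and 0.02. With 17 females and 19 males, each sex alone rests on 5 to 7 pigs a group. Members with few reads carry more counting error than the others.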

Other observations

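Several further transporters had an unadjusted p under 0.05 for obese against lean pigs, and apart from SLC35F6, which the rule for named genes reached, they are named after their values were seen. SLC9A9, a sodium-proton exchanger of endosomes, had a log2 difference of 0.45 ± 0.19 (SE), beside 0.45 for SLC9A8. For both genes 10 of 12 obese pigs were above the lean median. SLC4A11, a transporter known from the cornea, and SLC23A2, a vitamin C transporter, had -0.45 ± 0.20 (SE) and -0.28 ± 0.12 (SE), with 11 of 12 obese pigs below the lean median for both. In the nucleotide sugar family SLC35F6 and SLC35A3 had 0.23 ± 0.10 (SE) and 0.24 ± 0.11 (SE), and SLC35B3 had -0.19 ± 0.09 (SE). Without the 4 pigs that stood apart SLC35F6 and SLC35B3 had unadjusted p values of 0.0582 and 0.0933 in limma. BH-adjusted p values of SLC9A9, SLC4A11, SLC23A2, SLC35F6, SLC35A3 and SLC35B3 in limma were 0.241 to 0.303, so none passed.

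Of the 17 members with an unadjusted p under 0.05 for the interaction of sex and group, SLC4A7 and SLC25A32 had the smallest p, and they too were picked for their values. SLC4A7, a sodium bicarbonate cotransporter, had mean normalized counts of 279 ± 60.8 (SD, n = 7) in lean males, 354 ± 37.6 (SD, n = 5) in lean females, 520 ± 288 (SD, n = 6) in obese males and 301 ± 31.9 (SD, n = 6) in obese females. Its interaction was 1.09 ± 0.35 (SE) on the log2 scale, with a BH-adjusted p of 0.207 in limma. SLC25A32, the mitochondrial folate carrier, had 162 ± 8.55 (SD, n = 7), 183 ± 41.4 (SD, n = 5), 213 ± 59.9 (SD, n = 6) and 155 ± 18.0 (SD, n = 6) in the same order, with an interaction of 0.67 ± 0.22 (SE) and a BH-adjusted p of 0.215. Neither difference between the sexes passed the threshold.

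Of the other cell type markers, the endothelial list had 4 of 6 genes in the table, with a median obese minus lean log2 difference of -0.31. Of these 2 were lower at an unadjusted p under 0.05. At that p 7.88% of all genes were lower and 6.81% higher. The fibroblast list had 4 of 6 genes with a median of 0.26, the red cell list 2 of 5 with 0.81 and the T or NK cell list 3 of 6 with 0.61, of which 1 was higher at that p. In these lists only DCN of the fibroblast list, at -0.05, and CD247 of the T or NK cell list, at -0.04, were below 0. The adipocyte list had 5 of 9 with a median of 0.10, of which CIDEC, a lipid droplet protein, was higher at that p, by 0.54 on the log2 scale. KRT10 was the 1 of 4 skin markers in the table, at -0.26. In all the lists of this paragraph 0 genes passed the adjusted threshold in limma.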
